A study of Mus musculus with 12 samples.

Results

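A set of 35 genes that mark the epithelium of the intestine was followed in the adrenal medulla of 12 male C57Bl6 mice, out of 19505 genes measured on Affymetrix arrays. The genes were taken by symbol, each by its probe set of highest mean over the 12 arrays, and all 35 were represented, each by 1 probe set. Some of them were chosen by their log2 values on the arrays of germ-free mice given saline, where they stood out, so every value that involves those arrays is given here as a description. The mice were either colonized by a normal gut flora or germ-free. After a fast of 3 h each received an intraperitoneal injection of regular human insulin (2 IU/kg) or of saline, and the dissected medulla was frozen 90 min later. The 4 groups held 3 animals and 3 arrays each: colonized saline (animals 1 to 3), colonized insulin (4 to 6), germ-free saline (7 to 9) and germ-free insulin (10 to 12). Values are log2 intensities, and the number of arrays limits their precision.

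The intestinal lining is a sheet of absorptive enterocytes interspersed with goblet cells that secrete mucus, with Paneth and stem cells at the base of the crypts. The free surface of an enterocyte is a brush border of microvilli that carries enzymes for the last steps of digestion and carriers for sugars, peptides and amino acids. The adrenal medulla is made of chromaffin cells that secrete catecholamines and is surrounded by the steroid-producing cortex. Several of the 35 genes are also active elsewhere, such as Anpep, Enpep and Mep1a in kidney and Pigr and Anpep in liver.

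Markers of the medulla were high on all arrays, and so were those of the surrounding cortex. The mean of 10 chromaffin cell genes was lowest in germ-free insulin mice, at 9.93 to 10.45, against 10.93 to 11.49 in colonized insulin mice. The mean of 8 adrenal cortex genes lay between 12.23 and 12.62 over the 12 arrays. Arrays of the same group correlated at 0.954 to 0.993 across genes. The 5222 negative control rows had medians from 4.70 to 4.83 on colonized arrays against 5.30 to 5.54 on germ-free ones, with 95th percentiles of 7.21 to 7.48 against 8.23 to 8.41. A low value of an intestinal gene is therefore read here as a signal near background, and a difference that starts from it is not exact.

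Promoter sequences are shown for 5 genes: Reg1, which differed most, and 2 pairs of neighbouring genes. Alpi and Akp3 read alike, and Guca2a and Guca2b did not. Guca2a was under the negative control median in the germ-free saline mice, so its own course is not known. Each window is the 250 bases before the annotated start of the gene, 5′ to 3′ on the gene's strand, from RefSeq on GRCm38.p6. Capitals mark matches, on either strand, to TATAAA (the core promoter box), AGATAA (a site of zinc finger factors such as Gata4), AAAGTCCA (HNF4) or CCATAAA (CDX), or to the HNF1 consensus, of which none contains another. The Reg1 window is chr6:78425733-78425982, plus strand. Guca2b lies at chr4:119658946-119659195, minus strand, and Guca2a, the next coding gene, at chr4:119637482-119637731, plus strand. Alpi lies at chr1:87101607-87101856, minus strand, and its neighbour Akp3 at chr1:87124704-87124953, plus strand.
Reg1: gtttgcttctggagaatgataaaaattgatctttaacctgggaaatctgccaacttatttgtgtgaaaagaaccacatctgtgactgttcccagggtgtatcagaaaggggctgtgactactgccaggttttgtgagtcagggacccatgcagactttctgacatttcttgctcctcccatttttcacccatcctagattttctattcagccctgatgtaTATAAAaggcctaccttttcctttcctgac
Guca2b: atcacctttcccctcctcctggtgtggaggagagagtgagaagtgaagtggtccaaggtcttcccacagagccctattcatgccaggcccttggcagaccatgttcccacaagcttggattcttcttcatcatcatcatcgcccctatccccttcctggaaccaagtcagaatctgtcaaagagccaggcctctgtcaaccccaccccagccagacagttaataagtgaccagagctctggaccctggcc
Guca2a: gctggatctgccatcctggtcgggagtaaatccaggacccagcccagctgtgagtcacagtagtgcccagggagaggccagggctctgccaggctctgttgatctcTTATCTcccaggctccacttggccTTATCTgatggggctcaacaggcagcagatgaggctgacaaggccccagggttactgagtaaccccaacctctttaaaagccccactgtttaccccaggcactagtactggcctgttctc
Alpi: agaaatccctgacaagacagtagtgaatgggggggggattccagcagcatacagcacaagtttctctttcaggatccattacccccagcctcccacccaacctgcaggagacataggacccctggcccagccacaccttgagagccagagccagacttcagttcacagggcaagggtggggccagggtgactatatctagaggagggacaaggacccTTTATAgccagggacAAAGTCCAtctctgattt
Akp3: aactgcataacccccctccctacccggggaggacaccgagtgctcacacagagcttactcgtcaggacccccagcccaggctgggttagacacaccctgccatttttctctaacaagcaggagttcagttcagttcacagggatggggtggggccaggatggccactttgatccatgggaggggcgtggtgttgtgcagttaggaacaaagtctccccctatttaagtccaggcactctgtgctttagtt
The Reg1 window held TATAAA starting 30 bases before the start. The Alpi window held a TATA match at 33 bases and AAAGTCCA at 18 bases before the start. The Guca2a window held 2 GATA matches, and the Guca2b and Akp3 windows held none of these. The longest run of letters shared by the Alpi and Akp3 windows was 14 bases (ttcagttcacaggg), and that shared by the Guca2a and Guca2b windows was 8 bases. RefSeq windows matched 31 of the members (35 windows, since some genes have more than 1 start), and Mep1b, Cdh17, Cdh1 and Krt19 were not matched. TATAAA was in 8 of these 35 windows and in 12.4% of all 32851 windows used. AGATAA was in 6 (9.99% of all), AAAGTCCA in 3 (1.01%), CCATAAA in 1 (2.43%) and the HNF1 consensus in 0 (0.0609%). A match is a description of the letters and not evidence of binding.

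Most of the intestinal genes read higher in the 3 germ-free mice given saline than in the 9 other mice, by very different amounts. For 25 of the 35 genes all 3 germ-free saline arrays lay above all 9 other arrays, a pattern shown by 1.52% of all genes (296). No member lay wholly below, where 1.45% of all genes did (282). The difference between the germ-free saline mean and the average of the 3 other group means ran from -0.13 to 5.47 over the members on the log2 scale, with a median of 1.44 against -0.03 over all genes. It exceeded 1 for 22 members (0.713% of all genes) and 2 for 15 members (0.246% of all genes). Since these arrays helped to choose the genes, the counts describe the set and test nothing. In such pieces of tissue, fewer cells of a type and less RNA per cell cannot be told apart.

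**Figure D1:**
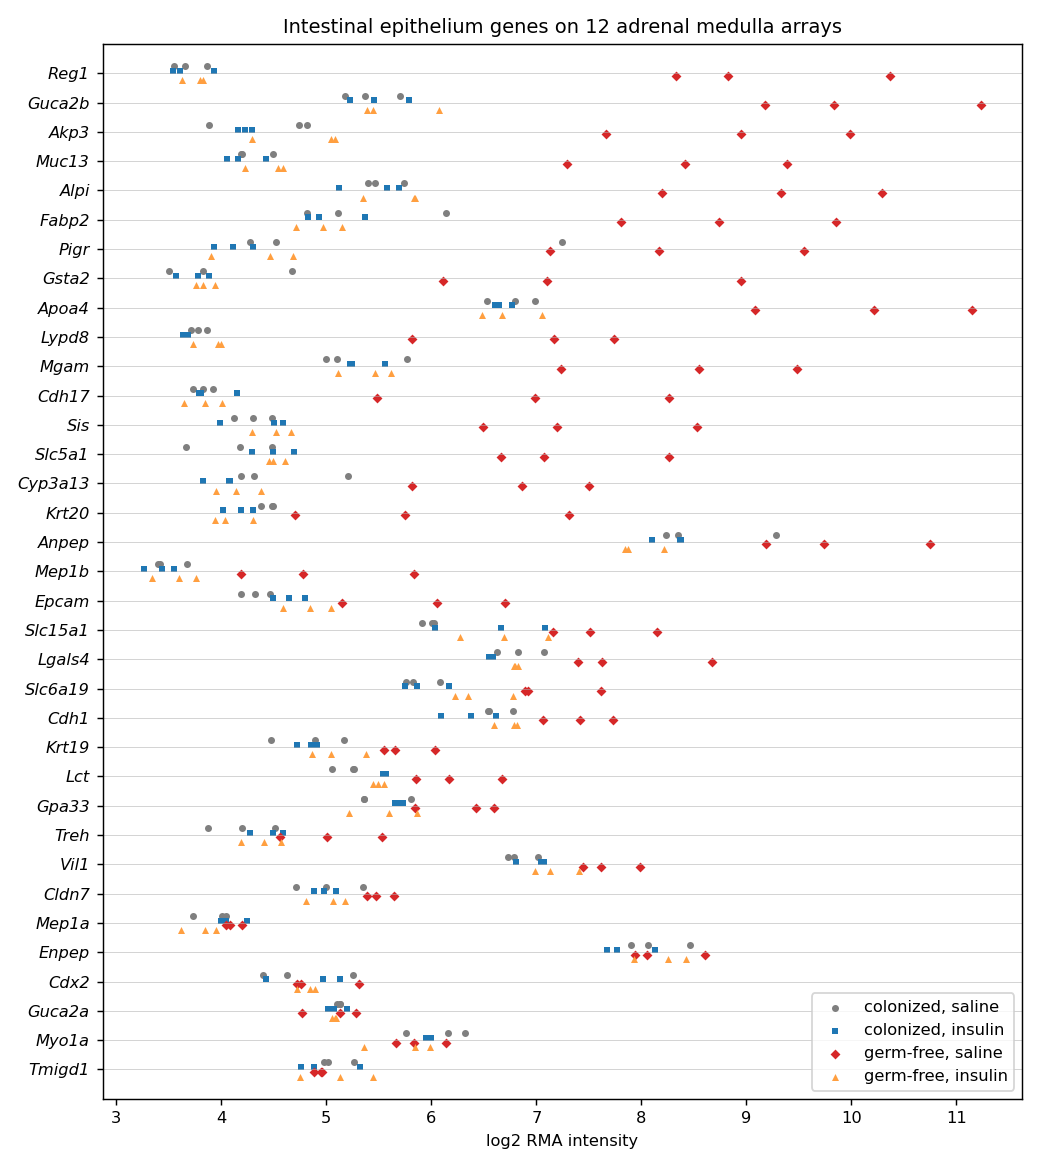
Log2 RMA intensity (x axis) of the 35 intestinal epithelium genes (rows, ordered by the difference of germ-free saline from the other groups) on each of 12 arrays; each point is 1 animal. From Reg1 at the top (8.33 to 10.37 in germ-free saline, 3.54 to 3.93 elsewhere) the germ-free saline points approach the others, which they overlap for 10 of the 35 genes.

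Among the secreted products, Reg1, a lectin-related protein of the gut and exocrine pancreas, had the largest difference. It read 10.37, 8.33 and 8.83 in germ-free saline animals 7, 8 and 9. The other animals read 3.86, 3.55 and 3.65 (colonized saline), 3.54, 3.93 and 3.60 (colonized insulin) and 3.62, 3.83 and 3.79 (germ-free insulin). The germ-free saline arrays thus stood 4.40 above the highest other array, and the difference from the other groups was 5.47.

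Guca2b encodes uroguanylin, a peptide that activates guanylate cyclase C and drives salt and water secretion. Its values were 11.23, 9.18 and 9.84 in germ-free saline animals, 5.37, 5.18 and 5.70 in colonized saline, 5.45, 5.79 and 5.22 in colonized insulin and 5.39, 6.07 and 5.44 in germ-free insulin animals. Guca2a encodes guanylin, which acts on the same receptor. It read 5.28, 5.13 and 4.77 in germ-free saline animals, within or below its 5.02 to 5.20 on the other 9 arrays in all but animal 7. The readings of the neighbouring pair therefore differed from the other groups unequally, by 4.57 for Guca2b and by -0.04 for Guca2a. Guca2a lay under the negative control median on each germ-free saline array, so its flat reading says little about its RNA. Lgals4, a galectin of the enterocyte surface, was 7.39 to 8.67 in germ-free saline and 6.54 to 7.08 elsewhere.

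Among the enzymes of the brush border, the alkaline phosphatases Akp3 and Alpi, which remove phosphate from bacterial products and nucleotides at the surface, were high together. Akp3 read 9.99, 7.66 and 8.95 in germ-free saline animals and 3.88 to 5.08 on the other arrays. Alpi read 10.30, 8.19 and 9.33 there, and 5.12 to 5.85 on the others. Their differences were 4.36 and 3.72, and neither overlapped the other groups.

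The sugar hydrolases were uneven. Mgam, which releases glucose from starch fragments, averaged 8.42 ± 1.13 (SD, n = 3) in germ-free saline against 5.29 ± 0.42, 5.34 ± 0.18 and 5.40 ± 0.26 in colonized saline, colonized insulin and germ-free insulin mice. Sis, which cleaves sucrose and isomaltose, averaged 7.40 ± 1.04 against 4.30 ± 0.18, 4.36 ± 0.33 and 4.49 ± 0.19. Lct, the lactase, differed by 0.82 and did not overlap the other arrays. Treh, which cleaves trehalose, differed by 0.69 and overlapped them, with its lowest germ-free saline value 0.03 under the highest other value.

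Of 4 peptidases, 1 was clear of the other arrays. Mep1b, the beta subunit of the metalloprotease meprin, read 4.18 to 5.83 in germ-free saline and 3.27 to 3.76 elsewhere, a difference of 1.44. Mep1a, its alpha subunit partner, differed by 0.16 and Enpep, which trims acidic residues from angiotensin, by 0.13, and both overlapped the other groups. Anpep, the broad aminopeptidase N, had high values in every group: 10.75, 9.19 and 9.74 in germ-free saline, 8.23, 9.28 and 8.35 in colonized saline, 8.10, 8.37 and 8.37 in colonized insulin and 8.21, 7.88 and 7.85 in germ-free insulin animals. Its overlap came from colonized saline animal 2.

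All 3 nutrient carriers lay above the other arrays. Slc5a1, the sodium-glucose cotransporter of the brush border, read 8.26, 6.66 and 7.08 in germ-free saline animals. It read 4.18, 3.66 and 4.48 in colonized saline, 4.69, 4.29 and 4.49 in colonized insulin and 4.45, 4.49 and 4.61 in germ-free insulin animals. Slc15a1, which imports dipeptides and tripeptides, differed by 1.18 and Slc6a19, which imports neutral amino acids, by 1.06. Both already lay over the negative control median on each of the other 9 arrays, and Slc15a1 cleared the highest of them by 0.05.

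Fat handling and detoxification genes were among those of large difference. Fabp2, the intestinal fatty acid binding protein, read 9.86, 7.80 and 8.74 in germ-free saline animals and 4.71 to 6.14 elsewhere, and Apoa4, an apolipoprotein of chylomicrons, 11.15, 9.08 and 10.22 against 6.48 to 7.05. Gsta2, a glutathione transferase, differed by 3.53 and Cyp3a13, a cytochrome P450 that oxidizes foreign compounds, by 2.49. All 4 lay above every other array.

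At the mucosal surface, the membrane mucin gene Muc13 averaged 8.37 ± 1.05 (SD, n = 3) in germ-free saline and 4.21 to 4.45 in the other groups. Lypd8, which holds flagellated bacteria away from the epithelium, averaged 6.91 ± 0.98 against 3.65 to 3.90. Pigr, the receptor that carries IgA across the epithelium, read 9.55, 7.13 and 8.17 in germ-free saline animals, 4.27, 7.25 and 4.52 in colonized saline, 4.11, 4.30 and 3.93 in colonized insulin and 4.46, 4.68 and 3.90 in germ-free insulin animals. Without colonized saline animal 2 its germ-free saline values would not have overlapped the others.

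Adhesion and cytoskeletal genes gave smaller differences, apart from Cdh17. This intestinal cadherin averaged 6.91 ± 1.39 (SD, n = 3) in germ-free saline and 3.82 to 3.91 in the other groups, a difference of 3.05. Epcam and Cdh1, adhesion molecules of most epithelia, differed by 1.37 and 0.83, the tight junction gene Cldn7 by 0.50 and Gpa33, a surface antigen of gut epithelium, by 0.70. Gpa33 was the only gene of these 5 to overlap the other arrays, by 0.02, while Cldn7 cleared them by 0.03. The keratins Krt20 and Krt19 of differentiated and simple epithelium differed by 1.68 and 0.82, and Vil1, which bundles actin in microvilli, by 0.69. Myo1a, the motor that ties the actin core to the microvillus membrane, differed by -0.05 and Tmigd1, an adhesion protein of the brush border, by -0.13.

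Cdx2, the homeobox factor that directs intestinal identity, read 5.31, 4.72 and 4.76 in germ-free saline animals, 4.62, 4.39 and 5.25 in colonized saline, 4.97, 4.42 and 5.13 in colonized insulin and 4.89, 4.85 and 4.72 in germ-free insulin animals. Its difference was 0.12 and the groups overlapped. Cdx2 lay under the negative control median on each germ-free saline array, so this overlap says little about its RNA. The 10 members whose germ-free saline arrays did not clear all others were thus Pigr, Anpep, Gpa33, Treh, Mep1a, Enpep, Cdx2, Guca2a, Myo1a and Tmigd1.

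The level reached over background was limited. Of the 35 genes, 14 exceeded the 95th percentile of the negative controls on at least 1 germ-free saline array, and 4 did so on all 3 (Reg1, Guca2b, Apoa4 and Anpep). On the 9 other arrays only Anpep and Enpep passed that level on any array. In those 9 mice 11 members stayed under the negative control median of every array and 8 stayed over it on every array.

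The 3 germ-free saline animals differed from each other in the same order for most of the genes. Animal 7 was highest, animal 9 intermediate and animal 8 lowest for 29 of the 35 genes, an order shown by 15.6% of all genes. Among the 25 genes clear of the other arrays, 23 had this order, and the exceptions were Slc6a19 and Cldn7. For these 25 genes animal 7 exceeded animal 8 by a median of 1.92 (range 0.09 to 2.83) on the log2 scale, animal 9 exceeded animal 8 by 0.71 and animal 7 exceeded animal 9 by 0.97, while the medians over all genes were -0.01, 0.02 and -0.02. The gap between animals 7 and 8 was 2.03 for Reg1, 2.05 for Guca2b, 2.10 for Alpi and 2.79 for Cdh17, and shrank to 0.69 for Slc6a19 and 0.09 for Cldn7. The SD within the group had a median of 0.79 over the members in germ-free saline and of 0.23, 0.16 and 0.21 in colonized saline, colonized insulin and germ-free insulin mice, against 0.12 over all genes in germ-free saline.

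**Figure D2:**
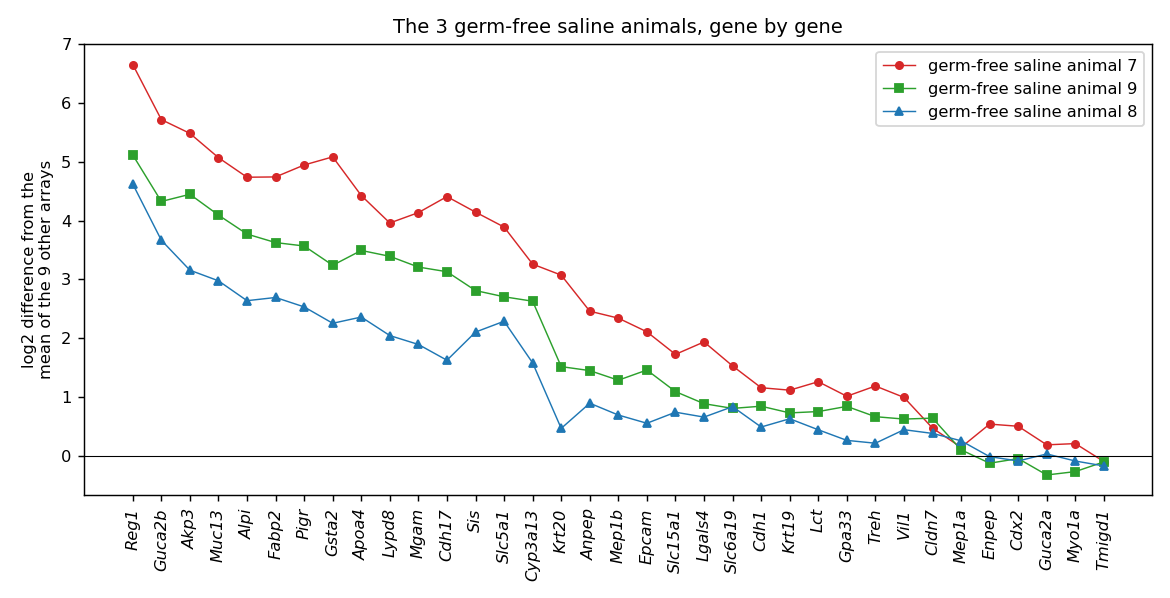
Log2 difference of each germ-free saline animal from the mean of the 9 other arrays (y axis) for the 35 genes (x axis, ordered by the difference of germ-free saline from the other groups); lines join the values of 1 animal. Animal 7 runs above animal 9 and animal 9 above animal 8 for 29 genes, and the lines meet near 0 for the last genes.

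Colonized saline animal 2 held the highest of the 9 remaining values for 9 of the 35 genes, against 20.3% of all genes (3966), and for 5 of them it exceeded the other 8 arrays by more than 0.5. These were Pigr (7.25 against at most 4.68), Anpep (9.28 against 8.37), Cyp3a13 (5.21 against 4.37), Fabp2 (6.14 against 5.37) and Gsta2 (4.68 against 3.94). The share of all genes with such an excess in animal 2 was not counted, so nothing is read from the 5. Reg1 (3.55), Sis (4.30) and Cdh17 (3.83) were at their usual low values in that animal. Its gut wall smooth muscle mean, at 8.56, was also the highest of the 12 arrays.

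Hepatocyte genes moved with part of this pattern. The mean of 12 hepatocyte genes was 9.98, 8.40 and 8.93 in germ-free saline animals 7, 8 and 9, again highest in 7 and lowest in 8. It was 5.54, 10.84 and 7.71 in colonized saline, 5.75, 5.87 and 6.38 in colonized insulin and 8.29, 8.79 and 6.96 in germ-free insulin animals. None of the 12 hepatocyte genes lay above all other arrays in germ-free saline, and their median difference was 1.62. Alb, serum albumin, read 12.97, 11.48 and 12.10 there and 13.23 in animal 2. In animal 2, with the highest hepatocyte mean, the mean of the 35 intestinal genes was 5.34, against 5.10 and 5.13 in the other colonized saline mice and 7.88, 6.50 and 7.08 in germ-free saline mice. Adipocyte genes averaged 9.54, 9.17 and 8.83 in germ-free saline animals and reached 10.30 in animal 2 and 10.25 to 10.64 in germ-free insulin animals, with a median difference of 0.33 and 0 of 8 clear of the other arrays. Pituitary genes averaged 5.33 to 5.85 in germ-free saline and 6.99 to 8.05 in germ-free insulin mice, with a median difference of -0.67 over 6. The medians were 0.02 for chromaffin cell genes and 0.09 for adrenal cortex genes, of which Cyp11b1 was clear of the other arrays. The part of liver or fat tissue in the intestinal values was not tested.

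**Figure D3:**
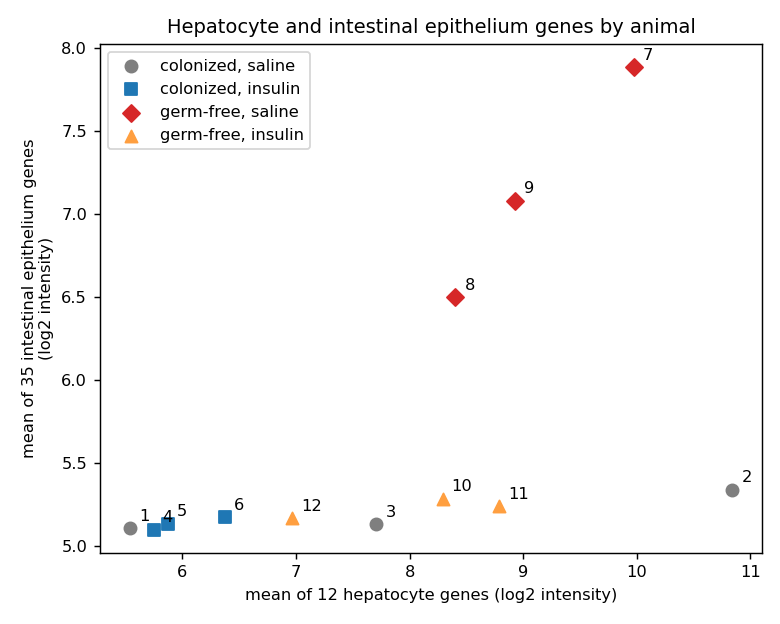
Mean log2 intensity of the 35 intestinal epithelium genes (y axis) against that of 12 hepatocyte genes (x axis), 1 point per animal with its number. Animal 2 has the highest hepatocyte mean (10.84) with an intestinal mean of 5.34, while germ-free saline animals 7, 8 and 9 lie at 7.88, 6.50 and 7.08.

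Other genes of the gut, from lists of the cell types and functions of the intestine, were read beside the 35. Of 8 goblet cell genes, 6 lay above all other arrays in germ-free saline, with a median difference of 1.35: Zg16, a lectin of mucus granules, differed by 2.39, Clca1, a mucus-processing protease, by 2.04, Fcgbp, a mucus protein, by 1.58 and Tff3, a trefoil peptide, by 1.36. Paneth cell genes had 2 of 8 (Defa22 and Ang4, by 0.43 and 0.30) and a median of 0.26. Both read under the negative control median on each germ-free saline array. Among enteroendocrine cell (10 measured, median 0.10), tuft cell (7, -0.18), crypt and stem cell (6, -0.01) and mucosal immune genes (9, 0.11) none was clear of the other arrays, nor was any of 8 antimicrobial and flora-responsive genes such as Reg3g and Reg3b (median 0.05). Some of these genes read high on every array, such as Lgr5 (8.82 to 10.58) and Axin2 (7.86 to 8.85). Their overlap therefore says little about whether crypt cells accompanied the set.

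Genes of fat absorption had a median difference of 0.83 over 12 measured. Mttp, which loads lipid onto apolipoprotein B, was clear of the other arrays at 8.54, 6.99 and 7.65 against at most 6.82. Fabp1, Apob and Apoa1, shared with liver, differed by 2.47, 2.13 and 2.06 but were highest in colonized saline animal 2, at 9.64, 10.27 and 11.45. Among 12 other nutrient and ion carriers none was clear, and Slc2a2, the glucose carrier of the enterocyte base and of hepatocytes, came nearest at 10.54, 8.43 and 9.10 with 8.52 in animal 2. Of 10 gut transcription factors Hnf4g differed by 2.51 and Creb3l3 by 0.39, both clear of the other arrays, and Krt8 was the clear gene among 10 keratin and junction genes, by 0.98. Markers of intestinal region were mostly flat, with Slc26a3, an anion exchanger, clear of the others by a difference of 0.79 and a list median of 0.00 over 9 genes.

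Tissues that lie near the adrenal or share genes with the gut were checked in the same way. None of 8 genes of gut wall smooth muscle (median -0.19), of 14 kidney genes (0.04) or of 12 pancreatic acinar genes (0.00) lay above all other arrays in germ-free saline. Reg1, Anpep, Enpep and Mep1a are also expressed in pancreas or kidney. The acinar mean ran from 5.75 to 6.09 and the kidney mean from 5.21 to 5.56 over all 12 arrays.

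**Figure D4:**
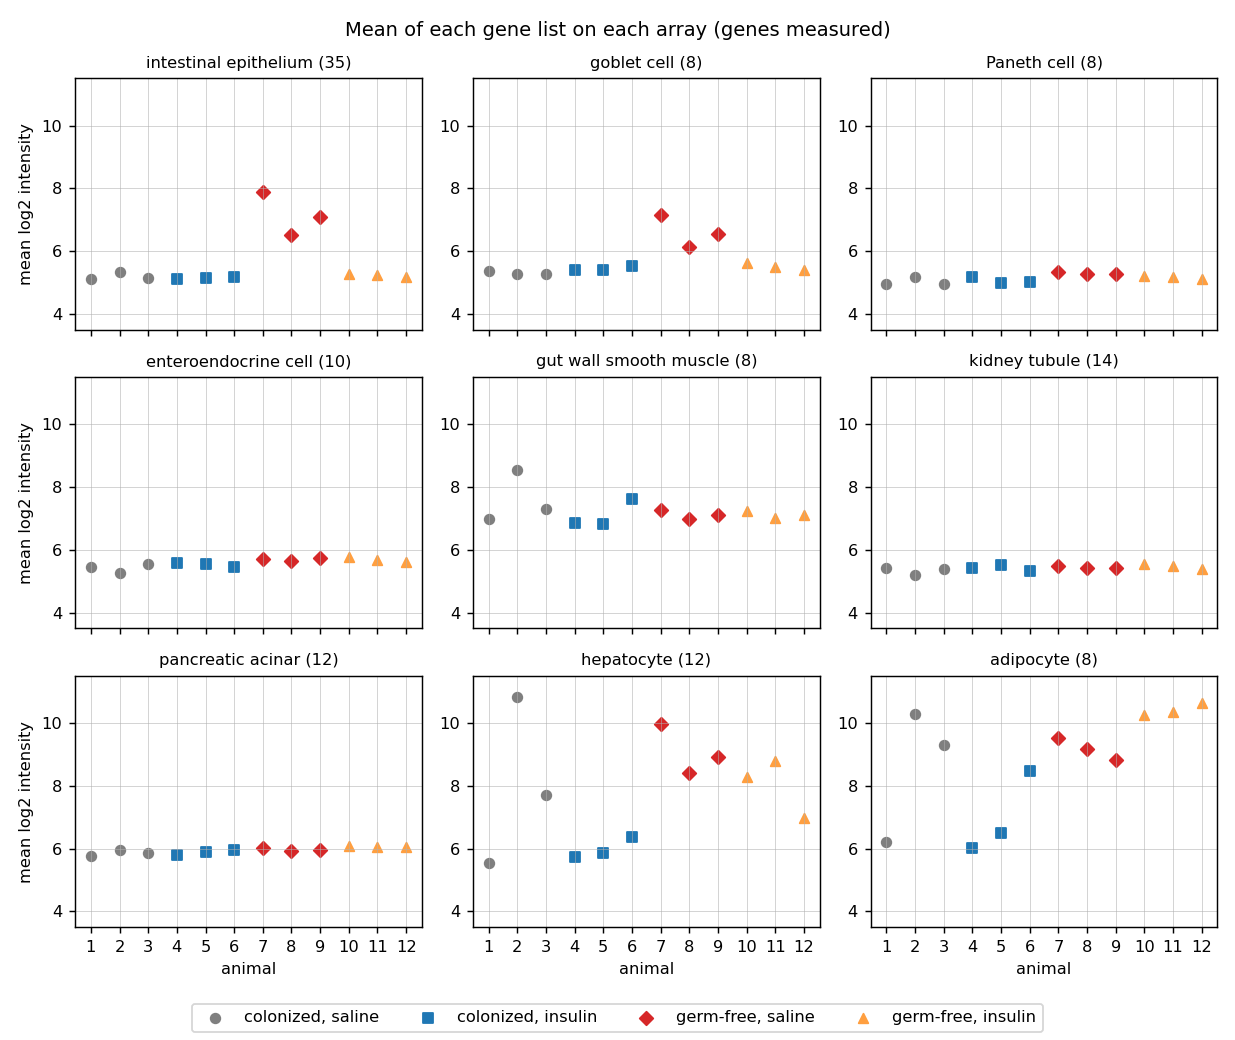
Mean log2 intensity (y axis) of 9 gene lists on each array (x axis, animal number), 1 point per animal, with the number of genes measured in brackets. The intestinal epithelium and goblet cell lists stand out in germ-free saline animals 7, 8 and 9, the hepatocyte list is highest in colonized saline animal 2 (10.84), the adipocyte list in germ-free insulin animals (10.25 to 10.64) and animal 2 (10.30), and the kidney and acinar lists stay within 5.21 to 5.56 and 5.75 to 6.09.

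The genes outside the set whose values followed the mean of the 35 most closely were found by Pearson correlation over the 12 arrays, which share the 3 germ-free saline arrays as their high points. The 10 named genes were Rbp2 (r = 0.991), Hnf4g (0.988), Clec2h (0.988), Zg16 (0.987), Arg2 (0.987), Sectm1b (0.985), Smim24 (0.984), Clca1 (0.982), Sult6b2 (0.981) and Cftr (0.976). Rbp2, the retinol binding protein of enterocytes, read 9.47, 7.48 and 8.27 in germ-free saline animals and 5.51 to 6.03 elsewhere. Cftr, the chloride channel, followed the same course at low signal, at 4.08, 3.59 and 3.88 against 3.09 to 3.32.

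Counts from the fit over all genes describe the same arrays. With limma, 27 members had a higher germ-free than colonized value after saline at an adjusted p under 0.05, where 2.82% of all probe sets did, and 16 had a lower value after insulin than after saline in germ-free mice, where 0.296% did. The first count was 11 with the compared groups alone, where 158 of all probe sets were called. It was 0 with the adrenal cortex mean or the negative control median as a covariate, and these fits called 0 of all 19572 probe sets. The members' median difference was 1.47 without a covariate, 1.66 with the cortex mean and 2.26 with the negative control median. The count was 27 with either the adipocyte or the hepatocyte mean as a covariate, where 1827 and 2431 of all probe sets were called. The second was 10 without germ-free saline animal 9 (30 of all probe sets called) and 10 without germ-free insulin animal 12 (25 of all). Both comparisons use the germ-free saline arrays that chose the genes, and nothing is read from these counts. The difference between the insulin effects was negative and past the threshold for 4 members (Reg1, Guca2b, Slc5a1 and Muc13), where 0.0255% of all probe sets were. That count was 1 without any of animals 4, 5, 6, 9, 10, 11 or 12, where 1 to 3 of all probe sets were called. It was 7 without animal 7 (14 of all), 8 without animal 1 (83 of all) and 16 without animal 8 (43 of all). With the adrenal cortex or the adipocyte mean as a covariate it was 0, as was the count over all probe sets.

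The comparisons whose group means do not include those arrays were tested. The fit pools the spread over all 12 arrays, so the wide spread of the members in germ-free saline enters their standard errors. On the arrays compared only Anpep and Enpep passed the 95th percentile of the negative controls on any array. Most members were thus read near background in both groups, and a low count of calls says little about them. The comparisons asked whether the intestinal genes changed with insulin in colonized mice and whether they differed between germ-free and colonized mice after insulin. For insulin in colonized mice limma called 0 of the 35 genes, against 0.153% of all probe sets, with 1 member (Lct) at an unadjusted p under 0.05, against 11.8% of all. With the germ-free saline arrays left out the members at an unadjusted p under 0.05 were 4, and with the compared groups alone 3. Both fits called 0 members and 0 of all probe sets. The share of all probe sets at that unadjusted p was not counted for them, so nothing is read from these member counts. The insulin effect had a median of -0.04 over the members and 0.00 over all genes, with 15 members above 0. The 3 insulin arrays lay wholly above the 3 saline arrays for 3 members (7.52% of all genes) and wholly below for 4 (6.54%). Lct was 5.19 ± 0.12 (SD, n = 3) after saline and 5.56 ± 0.02 after insulin, a difference of 0.37 ± 0.17 (SE, limma adjusted p = 0.419). Slc15a1 differed by 0.61 ± 0.29 (limma adjusted p = 0.439), and by 0.37 without colonized insulin animal 6. Pigr differed by -1.24 ± 0.70 (limma adjusted p = 0.502), and by -0.29 without colonized saline animal 2. The Pigr value became 0.025 with the hepatocyte mean and 0.22 with the adrenal cortex mean as a covariate.

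After insulin, no intestinal gene passed the threshold between germ-free and colonized mice, while other gene lists did. Chromaffin cell genes were lower in germ-free mice (8 of 10 called), and adipocyte (6 of 8) and pituitary genes (5 of 6) were higher. Their part in the members' values was not tested. The comparison called 7.77% of all probe sets (1521) and 0 of the 35 members, with 2 members at an unadjusted p under 0.05 against 22.5% of all. With the germ-free saline arrays left out 3 members had an unadjusted p under 0.05, and with the compared groups alone 6. These fits called 843 and 2251 of all probe sets and 0 members. Their share of all probe sets at that unadjusted p was not counted, so nothing is read from the 3 and 6. The median difference was 0.10 over the members and -0.03 over all genes, and 24 of the 35 lay above 0 (68.6%, against 44.5% of all genes), with the negative controls also higher on the germ-free arrays. The germ-free arrays lay wholly above the colonized ones for 4 members (12.0% of all genes) and wholly below for 1 (19.9%). Slc6a19 was 6.45 ± 0.29 (SD, n = 3) in germ-free and 5.93 ± 0.22 in colonized mice after insulin, a difference of 0.52 ± 0.21 (SE, limma adjusted p = 0.152). Mep1a differed by -0.29 ± 0.13 (limma adjusted p = 0.188) and was called with array weights, where it was -0.33. Reg1 stood at 3.75 ± 0.11 in germ-free and 3.69 ± 0.21 in colonized mice after insulin, and Guca2b at 5.63 ± 0.38 and 5.49 ± 0.29. A p that misses the threshold does not show that the groups were alike, and the 35 differences ran from -0.30 to 0.58.

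**Figure D5:**
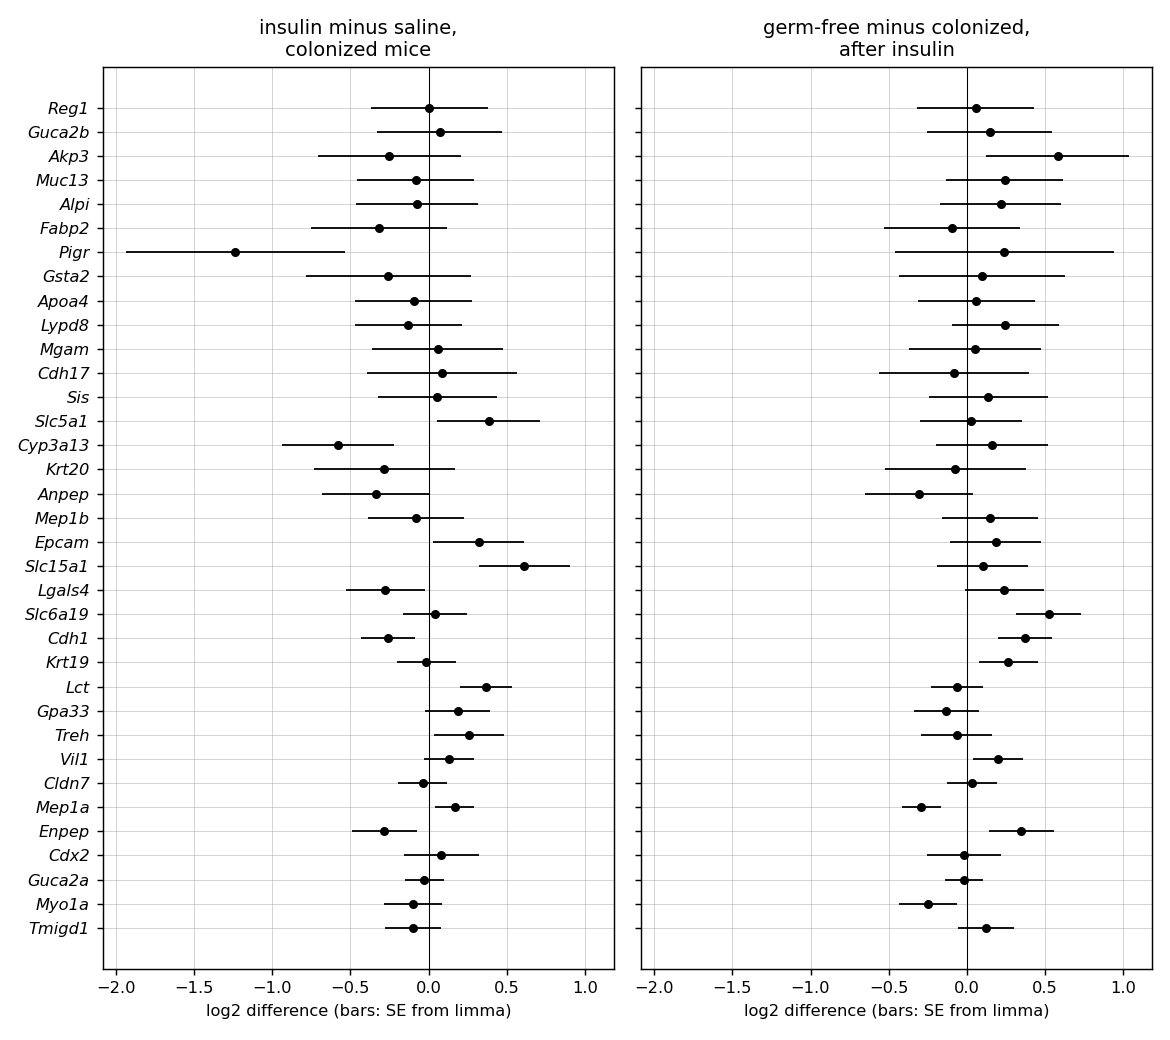
Log2 difference (x axis, bars are the SE from limma) of the 35 genes (rows) for insulin minus saline in colonized mice (left) and germ-free minus colonized mice after insulin (right), 3 arrays per group. The points lie between -1.24 and 0.61 on the left and between -0.30 and 0.58 on the right, and none passed an adjusted p under 0.05.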

How the data were processed

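Gene expression in the dissected adrenal medulla of 12 mice was measured on Affymetrix arrays. The deposited table holds log2 intensities made by the authors with RMA (background correction, quantile normalization, probe set summary), per the submitters' processing notes, which also name limma. Versions are not given in the sources used here, nor whether the arrays were normalized as 1 batch. The table has 28846 rows, of which 19572 are annotated to 1 gene symbol (19505 genes). The other 9274, with no symbol or more than 1, were left out. The values ran from 2.46 to 13.91 and were used as deposited.

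The model of group means used limma 3.58.1 (R 4.3.3) over 12 arrays and those 19572 probe sets (1 mean per group, eBayes, no filter on dim values), with Benjamini-Hochberg adjustment and a threshold of 0.05. An alternative fit with all rows kept the others. The pipeline was tested on simulated data. Animals are separate samples; the number of arrays limits the precision. The 35 members and the 20 comparison lists were chosen with earlier results of these data known. Genes were named by this rule: all members, up to 4 genes of a list with the largest germ-free saline difference, and the 10 non-members of highest correlation with the members' mean, leaving out symbols such as those ending in Rik.  A difference from the other groups is the germ-free saline mean minus the average of the 3 other group means. Covariates for hepatocyte genes and negative controls, and a fit without germ-free saline arrays, were added after the data were seen.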

Additional observations from a re-analysis of the deposited data

Results flagged for a closer look

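The fit's own test of the difference between the insulin effect in germ-free and in colonized mice passed the threshold for 4 members. Over all 19572 probe sets it did so for 7. The count of members was 1 when any of animals 4, 5, 6, 9, 10, 11 or 12 was left out (1 to 3 of all). It was 16 without animal 8 (43 of all). With the adrenal cortex or adipocyte mean as a covariate it was 0, as was the count over all probe sets. The difference was -5.43 on the log2 scale for Reg1, -4.52 for Guca2b, -3.83 for Muc13 and -3.20 for Slc5a1. These differences contain the germ-free saline arrays on which members were partly chosen, so they are descriptions. No group held more than 3 arrays, so no test for an outlying array within a group was run.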

How the results depend on the processing

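The members' mean difference of germ-free saline from the other groups was 1.97, ran from 1.61 to 2.30 when single arrays were left out, and was 0.87 over the 2 members (Anpep and Enpep) left by the filter on dim probe sets, which removes the others. The count of members above all other arrays was 25, ran from 25 to 29 without single arrays, and was 0 of those 2 after the filter. For insulin in colonized mice 0 members were called in every alternative fit run. For germ-free against colonized mice after insulin 0 were called, except 1 with array weights, where 3727 of all probe sets were called. After saline the count of 27 (1351 of all probe sets) was 1 after dim probe sets were dropped (1160 of 7068). It was 11 when only those arrays entered (158 of all). With either the cortex mean or the negative control median as covariate the count was 0. Those fits called 0 of all probe sets, with members' medians of 1.66 and 2.26 against 1.47. Without single arrays the count was 21 to 28, and 435 to 1938 of all were called. For insulin in germ-free mice the count of 16 (86 of all probe sets) was 1 with the dim filter (32 of 7068). Without single arrays it was 10 to 21, and 25 to 201 of all were called. For the difference of the insulin effects 4 members were called, and 7 of all probe sets. The count of members was 1 with all rows (2 of all), 0 with the dim filter (9 of all) and 2 with median centring (2 of all). It was 1 with trend and robust options (7 of all) and 12 with array weights (149 of all). With the adrenal cortex or the adipocyte covariate it was 0 (0 of all). It was 11 at a threshold of 0.1 (49 of all) and 14 with the hepatocyte covariate (61 of all). Without single arrays the count ran from 1 to 16. It was 8 without colonized saline animal 1 (83 of all), 7 without germ-free saline animal 7 (14 of all) and 16 without animal 8 (43 of all). It was 1 without any of animals 4, 5, 6, 9, 10, 11 or 12 (1 to 3 of all). The sign of Pigr for insulin in colonized mice reversed to 0.22 with the adrenal cortex covariate and to 0.025 with the hepatocyte covariate. The cause of these changes was not tested, apart from the smaller number of genes under the filter. Of 527 recomputed member differences 524 moved by less than the SD of the germ-free saline arrays, the others being 3 values of Tmigd1. No paired analysis was possible because the animals carry the numbers 1 to 12 and no number is shared between groups. Signals near the negative controls limit the low values.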

Other observations

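Some genes of the comparison lists separated all germ-free from all colonized arrays, and 2 of them that act in the gut are given here, singled out after their values were seen. Gip, the incretin peptide of enteroendocrine cells, read 6.73, 6.54 and 6.78 in colonized saline and 6.84, 6.83 and 6.95 in colonized insulin animals, against 7.26, 7.38 and 7.52 in germ-free saline and 7.37, 7.49 and 7.28 in germ-free insulin animals. Slc6a20a, a carrier of proline and related amino acids, read 5.62 to 5.94 on the 6 colonized arrays, 6.45 to 7.50 in germ-free saline and 6.56 to 7.12 in germ-free insulin animals. For both genes all germ-free arrays lay above all colonized arrays. The share of all genes with this pattern was not counted. After insulin alone, the germ-free arrays lay wholly above the colonized ones for 12.0% of all genes. In that comparison the difference was 0.51 for Gip and 1.11 for Slc6a20a. Its median was 0.10 over the 10 enteroendocrine genes and 0.16 over the 12 carriers of their lists, so the lists as a whole moved less. Slc7a8, also among those carriers, was lower in germ-free mice. Every value of Gip and Slc6a20a lay under the 95th percentile of the negative controls, at 7.21 to 7.48 on colonized and 8.23 to 8.41 on germ-free arrays. The negative control medians were higher on the same 6 arrays, at 5.30 to 5.54 against 4.70 to 4.83, and their part in these values was not tested.

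Beside the 25 members, 271 other genes had all 3 germ-free saline arrays above the 9 others. Of the 48 genes whose germ-free saline difference exceeded 2, 15 were members and 33 were not, and all 4 genes over 4 were members.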
